A study of Mus musculus with 4 samples.

Results

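The genes described here are 10 glutathione S-transferase (GST) genes, Gsta1, Gsta3, Gsta4, Gstm1, Gstm3, Gstm5, Gstp1, Gsto1, Gstt1 and Gstk1, chosen by name out of 55487 genes in each file. All 10 were found, and all 10 passed the filter on low counts, with at least 12.1 expected counts in every library. Their RNA was read in 4 libraries of stem cells sorted from intestinal crypts of untreated Lgr5-EGFP-IRES-creERT2 mice, 6 to 12 weeks old. In this line the Lgr5 locus drives a green fluorescent protein and an inducible Cre, and both groups carry it. Small-intestinal stem cells (SISC, 2 libraries) were Lgr5-EGFP+/CD24- cells from segments 2 to 3 cm from the pylorus and from the cecum. Large-intestinal stem cells (LISC, 2 libraries) were Lgr5-EGFP+ cells from cecum to rectum, with no CD24 gate given. The labels give no sex and do not say whether replicates were separate or pooled animals, and p-values thus reflect no more than the spread of these 4 libraries, some of which may be technical.

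Glutathione S-transferases join the tripeptide glutathione to electrophiles, such as products of lipid peroxidation, dietary compounds and carcinogens, so that these can be exported and broken down. The soluble enzymes fall into classes that differ in sequence and substrates, among them alpha (Gsta), mu (Gstm), pi (Gstp), theta (Gstt), omega (Gsto) and kappa (Gstk). In the gut they are known as part of the first line of xenobiotic defence, and many are targets of the transcription factor NRF2, which binds antioxidant response elements.

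Promoter sequence is shown for Gsta3, the one gene among the 10 that passed the test below. It is also shown for Gstm1 and Gstm5, genes of the same cluster with unequal differences. The windows are from RefSeq on GRCm38.p6 and give the 250 bases before the annotated start, 5′ to 3′ on the gene's strand. Capitals mark the core of the antioxidant response element, searched as TGACNNNGC on both strands in windows that run from 250 bases before to 50 bases after the start.
Gsta3, chr1:21240335-21240584, plus strand: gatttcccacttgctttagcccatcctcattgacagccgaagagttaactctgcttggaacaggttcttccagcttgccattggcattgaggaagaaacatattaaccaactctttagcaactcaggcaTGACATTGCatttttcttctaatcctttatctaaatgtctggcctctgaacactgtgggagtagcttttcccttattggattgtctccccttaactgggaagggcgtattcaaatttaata
Gstm1, chr3:108017819-108018068, minus strand: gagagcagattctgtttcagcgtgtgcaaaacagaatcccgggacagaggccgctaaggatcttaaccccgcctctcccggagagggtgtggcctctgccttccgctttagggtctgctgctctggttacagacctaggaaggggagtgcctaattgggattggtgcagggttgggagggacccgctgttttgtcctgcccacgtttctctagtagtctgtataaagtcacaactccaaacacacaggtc
Gstm5, chr3:107895604-107895853, plus strand: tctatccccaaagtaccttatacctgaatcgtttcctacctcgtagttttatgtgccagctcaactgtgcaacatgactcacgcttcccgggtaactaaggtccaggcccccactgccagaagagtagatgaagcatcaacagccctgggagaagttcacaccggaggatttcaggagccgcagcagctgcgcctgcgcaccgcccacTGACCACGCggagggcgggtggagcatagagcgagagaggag
Of the 10 genes, 9 had a window in the RefSeq table, and 2 of these 9 held a match: Gsta3, with TGACATTGC starting 121 bases upstream, and Gstm5, with TGACCACGC starting 42 bases upstream. Gstm1 held none in either of its windows. Of all 32851 windows, 12.4% held a match, and of the 27025 genes with a window, 13.99%. A match is a description of letters and not a binding site.

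Expected counts per library summed to between about 12795400 and 27227700. Ribosomal RNA genes took 31.8% and 36.6% of counts in replicate 1 of SISC and LISC, and 0.246% and 0.304% in replicate 2, so differences within each replicate number are given beside the fitted ones, without a test. Levels are CPM, counts relative to the library size scaled by TMM factors. Lgr5, the gene behind the sort, was read at 113 and 173 CPM in the SISC libraries and 147 and 89.7 CPM in the LISC libraries. Of 14165 genes tested by edgeR's quasi-likelihood test, 311 were called at an adjusted p below 0.05, 206 higher in LISC (1.45% of genes) and 105 higher in SISC. Of 8 stem cell markers tested 1, Olfm4, was called, higher in SISC. In sorted populations such as these, fewer cells of a type and less RNA per cell cannot be told apart. Markers of mature and secretory cells differed between the groups: 2 of 7 colonocyte markers were called higher in LISC (summed level 49.6 to 115 CPM in SISC and 403 to 1470 CPM in LISC, with Car1 and Aqp8 at 0 in SISC), and 3 of 9 absorptive enterocyte markers were called higher in SISC (322 to 391 CPM against 74.7 to 176 CPM in LISC, with Apoa4 at 0 in LISC). Of 7 Paneth cell markers (summed level 1410 to 8769 CPM in SISC and 299 to 1498 CPM in LISC) 1, Defa30, was called, higher in SISC. Spink4, at 206 and 128 CPM in the SISC libraries against 245 and 1473 CPM in the LISC libraries, ran against the other 6 markers and made up most of the list's level in LISC. Looked at after the values were seen, those 6 summed to 8564 and 1282 CPM in the SISC libraries against 53.6 and 25.0 CPM in the LISC libraries. For all 6 both SISC libraries lay above both LISC libraries, as they did for 18.4% of all genes tested. Goblet cell markers summed to 321 to 1844 CPM in SISC and 3077 to 4176 CPM in LISC, with 0 of 6 called by edgeR and 1 of 6 at an unadjusted p below 0.05. The part of these cells in the differences of the GST genes was not tested. Enteroendocrine markers summed to 28.2 to 165 CPM in SISC and 78.0 to 110 CPM in LISC. Sct was called higher in LISC (log2 4.61), and the other 5 were not called and overlapped between the groups. Of those, Chga, Chgb, Neurod1 and Tac1 had log2 differences of −0.94, −1.05, −0.16 and −1.23, and Gcg one of 0.997. Immune markers summed to at most 8.58 CPM. Stromal markers summed to at most 1.13 CPM and endothelial markers to at most 0.312 CPM in any library.

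Setting LISC against SISC shows which GST genes differ between the 2 sorted populations. A CD24 gate is given for SISC only, so a difference of intestinal region and one of the sort cannot be told apart. One of the 10, Gsta3, was called, and it was higher in LISC (1 of 10 genes). Of all genes tested, 2.2% were called in either direction, 1.45% higher in LISC and 0.741% higher in SISC. An unadjusted p below 0.05 was found for 5 of the 10, all higher in LISC, and for 8.73% of all genes in that direction. The 4 genes Gsta4, Gstk1, Gstm1 and Gstm3 had log2 differences of 1.83 to 3.97, with adjusted p-values between 0.0504 and 0.0793. Gsta1, Gstm5, Gstp1, Gsto1 and Gstt1 had log2 differences of −0.23 to 1.58 and adjusted p-values of at least 0.611. Both LISC libraries lay above both SISC libraries for 6 of the 10 (Gsta3, Gsta4, Gstm1, Gstm3, Gstm5 and Gstk1), as they did for 21.9% of all genes tested. For 0 of the 10 did both SISC libraries lie above, as they did for 18.4% of all genes tested. Over the 10 genes the median log2 difference was 1.70, and it was 1.23 within replicate 1 and 1.96 within replicate 2. The median over all genes tested was −0.02.

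**Figure D1:**
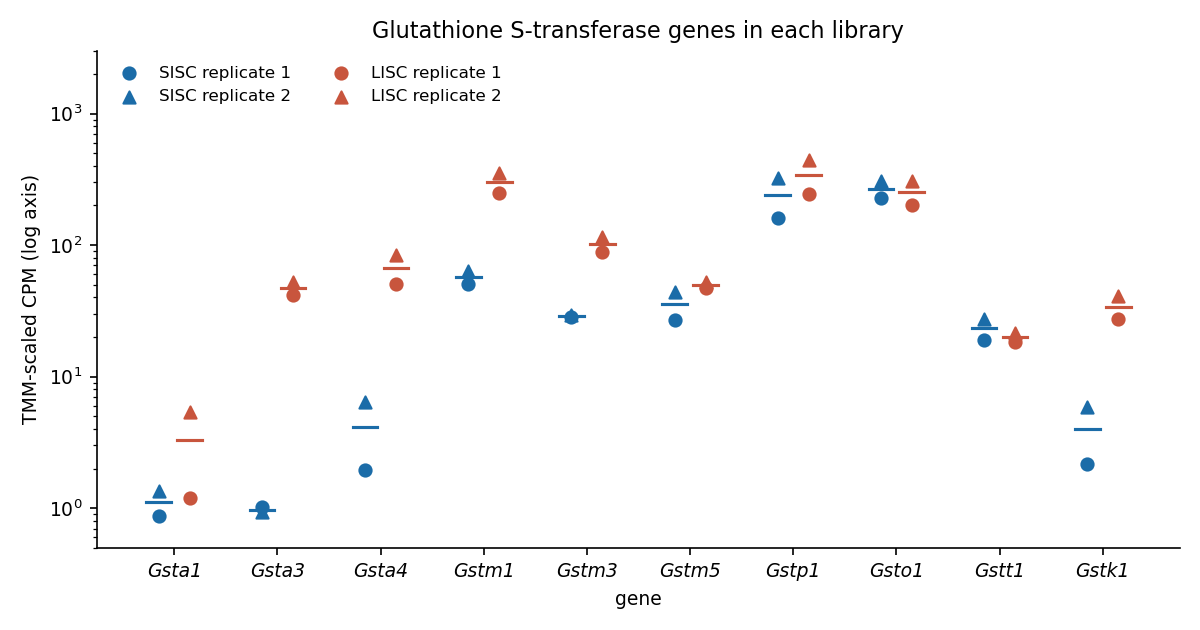
TMM-scaled CPM (log axis) of each GST gene, with circles for replicate 1, triangles for replicate 2 and bars for the mean of 2 libraries. Gsta3 lies near 1 CPM in both SISC libraries and at 41.6 and 52.3 CPM in LISC, while Gsto1 and Gstt1 overlap between the groups.

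The alpha class held the largest differences. Gsta3 (ENSMUSG00000025934; chromosome 1, 21240589 to 21265661, plus strand, GRCm38) encodes an alpha enzyme known in mice for conjugating the epoxide of aflatoxin B. It had 14 and 30 expected counts in the SISC libraries and 449 and 1522 in the LISC libraries, or 1.02 and 0.936 CPM against 41.6 and 52.3 CPM. The SISC values were close together and far below both LISC values. The fold was 48.0, a difference of 5.59 ± 0.31 on the log2 scale (SE; edgeR adjusted p = 0.0155), with 5.23 within replicate 1 and 5.67 within replicate 2. Its p was number 4 in order among the 14165 genes. The call held with DESeq2, with its size factors, with other filters, with a replicate block, with rRNA genes left out and with limma-trend on TPM. Over all 13 alternatives run, the log2 difference ran from 4.71 to 5.74. Fits with summed copies left the counts of Gsta3 as they were, and fits with a library left out have no measured spread in its group, so their calls are not counted. The annotation places Gm28836 on the opposite strand over part of Gsta3, and that gene had 0 counts in all 4 libraries.

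Gsta4 (ENSMUSG00000032348; chromosome 9, 78182774 to 78209349, plus strand) encodes the alpha enzyme with high activity towards 4-hydroxynonenal, an aldehyde of lipid peroxidation. It was read at 1.96 and 6.37 CPM in the SISC libraries and 50.3 and 83.6 CPM in the LISC libraries. Both LISC values exceeded both SISC values, and the SISC libraries differed from each other more than the LISC libraries did in proportion. The log2 difference was 3.97 ± 0.66 (edgeR adjusted p = 0.0647), with 4.61 and 3.70 within replicates 1 and 2. With all libraries kept, Gsta4 passed with DESeq2, with no filter on low counts and with the replicate number as a block. It missed with DESeq2's size factors in edgeR (edgeR adjusted p = 0.0689), with rRNA genes left out (0.0679) and with a stricter filter (0.0556). With a library left out, its group has no measured spread, so log2 differences, and no p-values, of those fits are given here. The log2 difference moved to 3.39 without SISC replicate 1 and to 5.06 without SISC replicate 2, and was 4.29 and 3.57 without LISC replicates 1 and 2.

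Gsta1 (ENSMUSG00000074183; chromosome 9, 78230656 to 78242684, plus strand), another alpha enzyme gene of the same stretch of chromosome 9, was low in all libraries. It was read at 0.872 and 1.34 CPM in the SISC libraries and 1.203 and 5.39 CPM in the LISC libraries. The groups overlapped, and LISC replicate 2 stood above the other 3 libraries. The log2 difference was 1.58 ± 0.87 (edgeR adjusted p = 0.611), with 0.43 and 1.93 within replicates 1 and 2, and it was 0.12 without LISC replicate 2. Its counts are uncertain: 90.5% of the 50-base stretches of its transcripts also occur in another gene, most often Gm3776 (75.7%), and the deposited posterior SD was 6.64% to 25.2% of the count. Summing Gsta1 with Gm3776 gave 1.69 ± 0.79 (edgeR adjusted p = 0.501).

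**Figure D2:**
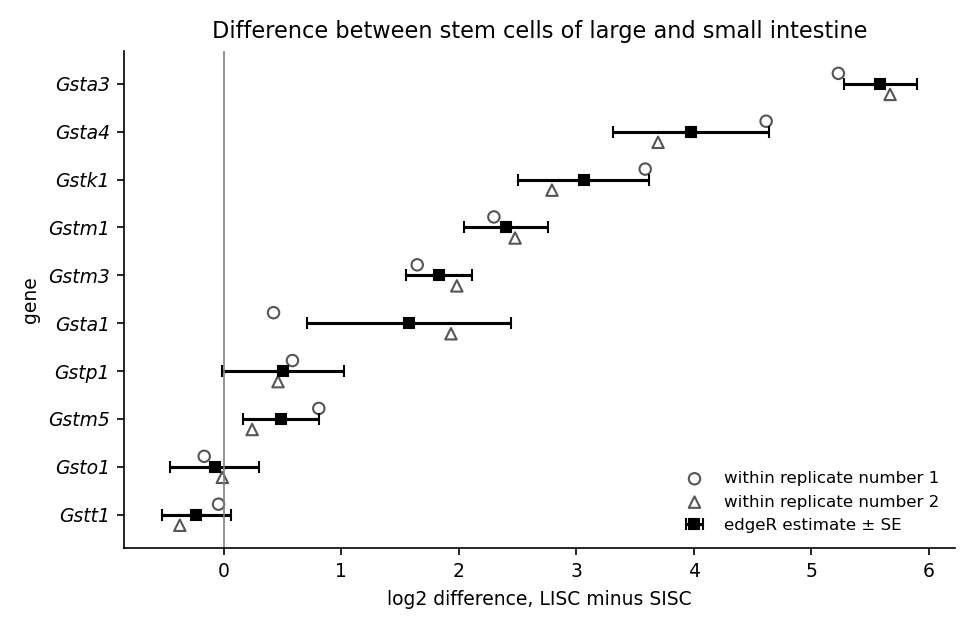
Log2 difference (LISC minus SISC) of each GST gene: squares with bars are edgeR estimates ± SE, and open symbols are differences within each replicate number. The estimates run from −0.23 for Gstt1 to 5.59 for Gsta3, and the open symbols of Gsta1 lie farther apart than those of Gstm1 or Gstm3.

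The kappa gene Gstk1 (ENSMUSG00000029864; chromosome 6, 42245935 to 42250447, plus strand) encodes an enzyme of mitochondria and peroxisomes with a fold unlike that of the cytosolic classes. It was read at 2.18 and 5.84 CPM in the SISC libraries and 27.22 and 41.0 CPM in the LISC libraries. The groups did not overlap. The log2 difference was 3.06 ± 0.56 (edgeR adjusted p = 0.0793), with 3.59 and 2.79 within replicates 1 and 2. The log2 differences were 2.54 and 3.94 without SISC replicates 1 and 2, and 3.33 and 2.75 without LISC replicates 1 and 2. With all libraries kept, Gstk1 passed with DESeq2, with no filter on low counts and with the replicate number as a block. It missed with DESeq2's size factors in edgeR (edgeR adjusted p = 0.0838), with rRNA genes left out (0.0842) and with a stricter filter (0.0724).

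The mu class gave unequal values. Gstm1 (ENSMUSG00000058135; chromosome 3, 108012255 to 108017973, minus strand), the gene of the main mu enzyme of mouse liver, was read at 50.6 and 63.4 CPM in the SISC libraries and 249 and 354 CPM in the LISC libraries. Both LISC libraries lay several times above both SISC libraries. The log2 difference was 2.40 ± 0.36 (edgeR adjusted p = 0.0504), with 2.30 and 2.48 within replicates 1 and 2. Gstm3 (ENSMUSG00000004038; chromosome 3, 107963696 to 107969283, minus strand), another mu enzyme gene, was read at 28.4 and 29.3 CPM in the SISC libraries and 89.2 and 116 CPM in the LISC libraries. The SISC values were nearly equal and below both LISC values. Its log2 difference was 1.83 ± 0.28 (edgeR adjusted p = 0.0541), with 1.65 and 1.98 within replicates 1 and 2. Gstm5 (ENSMUSG00000004032; chromosome 3, 107895821 to 107898686, plus strand), a mu enzyme gene best known from brain and testis, was read at 27.0 and 44.2 CPM in the SISC libraries and 47.5 and 52.4 CPM in the LISC libraries. Its groups did not overlap but came close, with a difference of 0.49 ± 0.32 on the log2 scale (edgeR adjusted p = 0.723) and 0.81 and 0.24 within replicates 1 and 2.

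Gstm1 and Gstm3 sat close to the threshold. Of the 12 alternatives that kept them apart, Gstm1 passed in 6 and Gstm3 in 4. Gstm3 had an edgeR adjusted p of 0.0529 with DESeq2's size factors, 0.0526 with rRNA genes left out and 0.0425 with a stricter filter. Gstm1 passed with DESeq2's size factors in edgeR (edgeR adjusted p = 0.0498), with rRNA genes left out (0.0499) and with a stricter filter (0.0380). It missed in limma-trend on TPM (adjusted p = 0.458). With one library left out, the log2 difference of Gstm1 ran from 2.14 to 2.63. DESeq2, which called 6.96% of its 16557 genes with an adjusted p, 4.64% higher in LISC, called 5 of the 10 genes: Gsta3 (adjusted p = 3.83e-31), Gsta4 (7.42e-09), Gstm1 (2.04e-08), Gstk1 (7.05e-06) and Gstm3 (1.79e-05). A fit with the replicate number as a block called the same 5 genes, and 7.17% of all genes tested higher in LISC. Of the 50-base stretches of their transcripts, 18.9% of those of Gstm1 and 28.8% of those of Gstm3 also occur in another gene, but the posterior SD was at most 0.226% of either count. Gstm5 overlaps 393 bases of the antisense gene 4933431E20Rik, which had 357 to 782 counts, and whether reads were counted by strand is not stated in the labels.

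All 7 mu genes tested lie side by side on chromosome 3 within 149 kb. In chromosome order their log2 differences were 0.49 ± 0.32 for Gstm5, 0.11 ± 0.45 for Gstm7, −0.16 ± 0.37 for Gstm6, 1.83 ± 0.28 for Gstm3, 1.59 ± 0.31 for Gstm2, 2.40 ± 0.36 for Gstm1 and 1.001 ± 0.33 for Gstm4. Thus the 4 genes from Gstm3 to Gstm4 had values of 1.001 to 2.40 and the 3 before them values of −0.16 to 0.49, and none of the 7 was called by edgeR as fitted, while DESeq2 called Gstm1, Gstm3 and Gstm2 (adjusted p = 0.00125 for Gstm2). This order was looked at after the values were seen, and Gstm4, Gstm6 and Gstm7 are named for that reason. The ratio of Gstm1 to Gstm5 counts, which needs no scaling between libraries, was 1.87 and 1.43 in SISC and 5.25 and 6.76 in LISC. The ratio of Gstm1 to Gstm6 was 4.87 and 3.47 in SISC and 22.1 and 24.6 in LISC. Neither ratio overlapped between the groups, and with 2 libraries against 2 no exact permutation test of such a ratio can give a two-sided p below 0.333. Summed over the cluster, the log2 difference was 1.67 ± 0.38 (edgeR adjusted p = 0.127).

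**Figure D3:**
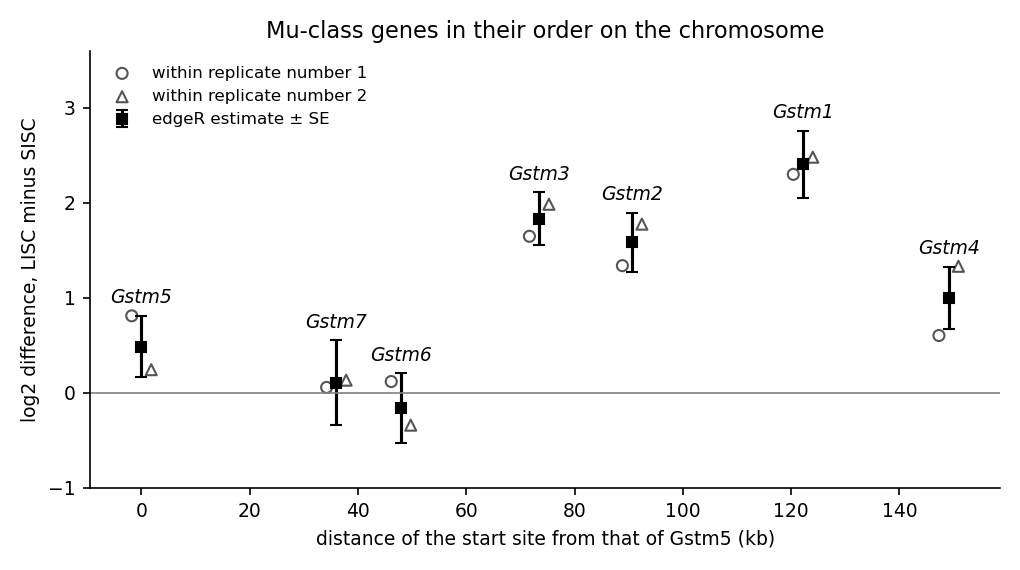
Log2 difference (LISC minus SISC) of the 7 mu-class genes against the distance of each start site from that of Gstm5 in kb, with edgeR estimates ± SE (squares) and differences within replicate numbers (open symbols). Gstm3, Gstm2, Gstm1 and Gstm4 lie at 1.001 to 2.40, and Gstm5, Gstm7 and Gstm6 at −0.16 to 0.49.

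The pi, omega and theta genes had small differences against wide spreads. Gstp1 (ENSMUSG00000060803; chromosome 19, 4035407 to 4037985, minus strand), the pi enzyme gene, was read at 162 and 323 CPM in the SISC libraries and 243 and 445 CPM in the LISC libraries. The groups overlapped, and replicate 2 was higher than replicate 1 in both. The log2 difference was 0.51 ± 0.52 (edgeR adjusted p = 0.899), with 0.59 and 0.46 within replicates 1 and 2. It was 0.01 without LISC replicate 2, 0.08 without SISC replicate 1, 0.88 without LISC replicate 1 and 1.06 without SISC replicate 2. Gstp1 shares 33.7% of its 50-base stretches with Gstp2, and Gstp1, Gstp2 and Gstp3 summed gave 0.53 ± 0.54 (edgeR adjusted p = 0.899).

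Gsto1 (ENSMUSG00000025068; chromosome 19, 47854970 to 47864790, plus strand) encodes the omega enzyme, a thioltransferase and dehydroascorbate reductase. It was read at 227 and 308 CPM in the SISC libraries and 202 and 306 CPM in the LISC libraries. The annotation places Cfap43 on the opposite strand over Gsto1, and that gene had 0 counts. The ranges of the groups nearly coincided, with a difference of −0.07 ± 0.38 on the log2 scale (edgeR adjusted p = 0.9995), −0.16 within replicate 1 and −0.01 within replicate 2. Its sign turned without SISC replicate 2 (0.14) and without LISC replicate 1 (0.19). Gstt1 (ENSMUSG00000001663; chromosome 10, 75783813 to 75798584, minus strand) encodes a theta enzyme that acts on small halogenated compounds. It was read at 19.0 and 27.6 CPM in the SISC libraries and 18.4 and 21.3 CPM in the LISC libraries. The groups overlapped, with a difference of −0.23 ± 0.29 on the log2 scale (edgeR adjusted p = 0.946), −0.04 and −0.37 within replicates 1 and 2, and 0.04 without SISC replicate 2. For neither gene does the missed threshold show that the groups were equal.

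Levels were compared between genes as TPM, which corrects for transcript length. TPM was lower in replicate 1 of each group, the libraries rich in ribosomal RNA, so shares within a library are given. Summed over 24 soluble GST genes of the annotation, the 10 genes made up 77.6% to 79.6% of the transcripts in each library. Gstp1 took the largest share of the 24 genes in all 4 libraries, 33.4% and 38.5% in SISC and 27.5% and 31.04% in LISC. Gsto1 came next in SISC, at 28.6% and 24.1%, and Gstm1 came next in LISC, at 15.7% and 16.4%. Gstm1 took 5.53% and 5.02% in SISC, and Gsto1 took 14.2% and 14.03% in LISC, so the order of these 2 genes differed between the groups in each library. Among the 10 genes, Gsta3 took the smallest share in both SISC libraries, 0.0891% and 0.0669%, and 3.12% and 2.45% in LISC. Among the same 10, Gsta1 took the smallest share in both LISC libraries, 0.136% and 0.335%. Next to each other in the LISC order, Gstm3 with Gsta4 and Gsta4 with Gstm5 changed places between libraries, and in SISC so did Gstt1 with Gstm3 and Gstk1 with Gsta4.

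By class, alpha transcripts took 0.616% and 0.918% of the soluble GST transcripts in SISC and 7.80% and 7.48% in LISC. Mu transcripts took 20.5% and 16.7% in SISC and 34.1% and 31.4% in LISC. Omega transcripts took 28.6% and 24.1% in SISC and 14.2% and 14.04% in LISC, although the CPM of Gsto1 overlapped between the groups. Kappa transcripts took 0.370% and 0.569% in SISC and 2.54% and 2.32% in LISC. Pi transcripts took 37.1% and 44.6% in SISC and 30.2% and 36.6% in LISC, so the groups did not overlap but came within 1 percentage point. Theta transcripts took 9.51% and 10.2% in SISC and 8.97% and 6.63% in LISC. The shares of a library sum to 100%, so a larger share of one class lowers those of the others. On the CPM scale, the 10 genes together stood at 520 and 810 CPM in the SISC libraries and 970 and 1477 CPM in the LISC libraries.

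**Figure D4:**
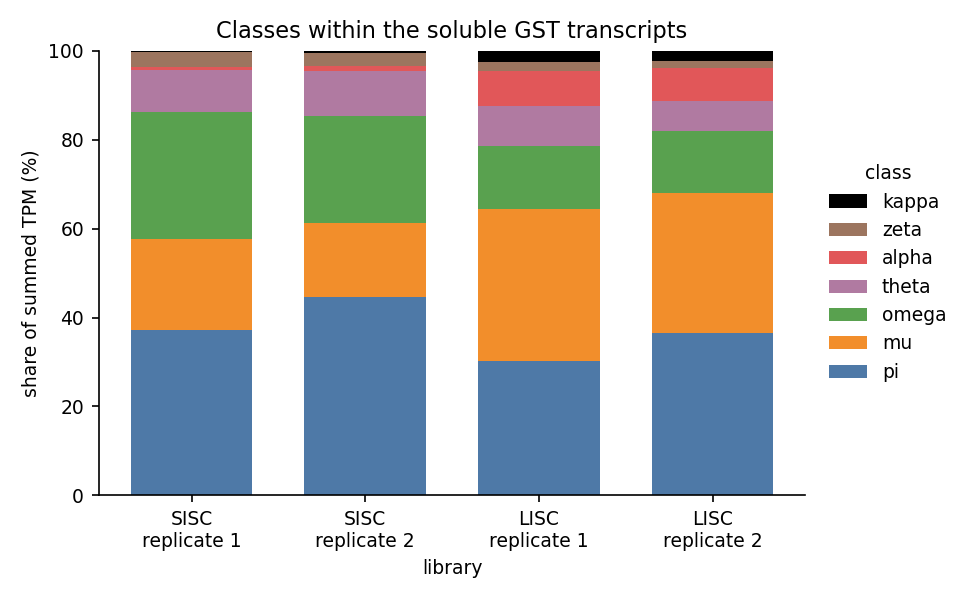
Share of the summed TPM of 24 soluble GST genes taken by each class (%), as stacked bars for the 4 libraries. Alpha transcripts take 0.616% and 0.918% in the SISC bars and 7.80% and 7.48% in the LISC bars, and the mu band is wider in LISC.

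Gsta3 had the smallest p among the 10 genes, and its likeness to other genes was measured as the root mean square distance of log2 CPM over the 4 libraries, each gene centred on its own mean. Among 6714 genes whose mean TPM reached 10 or more in the group where it was higher, the closest were Prnp, the prion protein gene (distance 0.22), Plet1, a surface protein gene of epithelial progenitors (0.25), and Kctd17, a BTB-domain protein gene (0.27). Prnp was read at 1.24 and 0.967 CPM in the SISC libraries and 45.1 and 80.0 CPM in the LISC libraries, close to Gsta3 in SISC and LISC replicate 1 and above it in LISC replicate 2.

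Other glutathione transferases were set beside the 10 genes. Of 18 tested, Hpgds was called, higher in LISC, against 1.45% of all genes tested, and 12 had both LISC libraries above both SISC libraries, against 21.9% of all genes. Hpgds encodes the sigma-class transferase that makes prostaglandin D and marks tuft cells and some immune cells. It was read at 0.291 and 0.530 CPM in the SISC libraries and 9.81 and 11.4 CPM in the LISC libraries, a difference of 4.61 ± 0.51 on the log2 scale (edgeR adjusted p = 0.0291). With one library left out, the log2 difference ran from 4.30 to 5.13. Depth limits Hpgds in SISC, at 4 and 17 expected counts. The 6 listed tuft cell markers, Hpgds among them, summed to 4.99 to 20.1 CPM in SISC and 79.7 to 125 CPM in LISC, with only Hpgds called, and their part in the result was not tested. The mu gene Gstm2 was read at 32.9 and 35.8 CPM in the SISC libraries and 83.2 and 123 CPM in the LISC libraries (edgeR adjusted p = 0.0930). It passed in 3 of the 12 alternatives that kept it apart from the other mu genes. The membrane-bound transferase genes Mgst1, Mgst2 and Mgst3 had log2 differences of 0.87 ± 0.30, 1.37 ± 0.45 and 1.33 ± 0.32. None passed in edgeR as fitted (adjusted p = 0.299, 0.272 and 0.139), while DESeq2 called Mgst3 (adjusted p = 0.00947). Mgst3 passed in 3 of the 13 alternatives, DESeq2 among them. For Mgst1, Mgst2 and Mgst3 both LISC libraries lay above both SISC libraries.

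Glutathione itself is made from cysteine, glutamate and glycine, and cysteine can come from methionine through Cbs and Cth. Of 7 synthesis genes tested, Cbs was called, higher in LISC, against 1.45% of all genes tested. Cbs, the cystathionine beta-synthase gene, was read at 12.2 and 13.1 CPM in the SISC libraries and 213 and 197 CPM in the LISC libraries, a 16.2-fold difference (log2 4.01 ± 0.30; edgeR adjusted p = 0.0168). Gclm, the modifier subunit of the rate-limiting ligase, was read at 31.9 and 39.2 CPM in the SISC libraries and 84.2 and 117 CPM in the LISC libraries, and Gss, glutathione synthetase, at 73.8 and 95.2 CPM against 121 and 171 CPM. Neither passed in edgeR as fitted (adjusted p = 0.103 and 0.420), though neither overlapped between the groups. DESeq2 called Gclm (adjusted p = 0.00266), and Gclm passed in 3 of the 13 alternatives, DESeq2 among them. Summed over the 7 genes, the level was 271 to 296 CPM in SISC and 573 to 692 CPM in LISC.

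Export of conjugates uses ABC transporters, and here 2 of 6 genes were called, in opposite directions, against 2.2% of all genes tested. Abcc2, the apical conjugate pump MRP2, was 45.2-fold higher in SISC, at 35.7 and 29.9 CPM against 0.926 and 0.584 CPM in LISC (log2 −5.50 ± 0.38; edgeR adjusted p = 0.0167). Abcc4, a pump of the same family, was 3.87-fold higher in LISC, at 6.11 and 5.59 CPM in the SISC libraries and 24.4 and 20.8 CPM in the LISC libraries (edgeR adjusted p = 0.0413). That call was lost in limma-trend on TPM (adjusted p = 0.237). The log2 difference of Abcc4 was 2.01 and 1.87 without SISC replicates 1 and 2, and 1.83 and 2.08 without LISC replicates 1 and 2. Abcc3, the basolateral MRP3, was read at 45.1 and 34.1 CPM in the SISC libraries and 147 and 114 CPM in the LISC libraries (log2 1.72 ± 0.31; edgeR adjusted p = 0.0790; DESeq2 adjusted p = 0.000368). It passed in 3 of the 13 alternatives, DESeq2 among them. Abcg2, an apical efflux pump of another ABC family, stood at 26.2 and 25.9 CPM in SISC against 21.8 and 25.7 CPM in LISC (log2 −0.13 ± 0.23; edgeR adjusted p = 0.972).

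Of 16 genes of the NRF2 axis tested, 2 were called, both higher in LISC, against 1.45% of all genes tested. Both LISC libraries lay above both SISC libraries for 5 of the 16, against 21.9% of all genes tested. Both SISC libraries lay above for 4 of the 16, against 18.4% of all genes tested. Nqo1, the quinone reductase gene used as a readout of NRF2, was read at 8.07 and 5.52 CPM in the SISC libraries and 63.5 and 78.9 CPM in the LISC libraries, a 10.5-fold difference (log2 3.40 ± 0.33; edgeR adjusted p = 0.0227). Me1, the malic enzyme gene that supplies NADPH, was read at 1.74 and 1.81 CPM in the SISC libraries and 11.3 and 10.9 CPM in the LISC libraries (log2 2.63 ± 0.36; edgeR adjusted p = 0.0431). The call of Me1 was lost in limma-trend on TPM (adjusted p = 0.0716). Its log2 difference was 2.60 and 2.64 without SISC replicates 1 and 2, and 2.61 and 2.67 without LISC replicates 1 and 2. Nfe2l2, which encodes NRF2, and Keap1, its inhibitor, were looked at after the values were seen. They had log2 differences of 0.30 ± 0.32 and 0.07 ± 0.24 (edgeR adjusted p = 0.904 and 0.999). Mafk and Maff, which encode small MAF proteins that pair with NRF2, were also looked at then, and had log2 differences of −2.10 ± 0.65 and −2.68 ± 0.75 (edgeR adjusted p = 0.238 and 0.196), with both SISC libraries above. Taldo1 and Pgd, enzyme genes of the pentose phosphate pathway, had log2 differences of 0.01 ± 0.36 and 0.29 ± 0.31.

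In the remaining lists no gene was called by edgeR. Of 23 peroxidase and reductase genes tested, 3 had an unadjusted p below 0.05, and the median log2 difference was 0.13. Gpx2, the gut glutathione peroxidase, was read at 545 and 629 CPM in the SISC libraries and 809 and 1046 CPM in the LISC libraries (edgeR adjusted p = 0.648). Txn1, the thioredoxin gene, had a log2 difference of 0.31 ± 0.48. Of 11 breakdown and mercapturic acid genes, 5 had an unadjusted p below 0.05. Among them Anpep, a brush border peptidase that is also an enterocyte marker, was read at 187 and 93.7 CPM in the SISC libraries and 19.4 and 37.3 CPM in the LISC libraries (log2 −2.31 ± 0.52; edgeR adjusted p = 0.126; DESeq2 adjusted p = 0.000237). Anpep passed in 3 of the 13 alternatives, DESeq2 among them. Lap3, a leucine aminopeptidase gene, had a log2 difference of 0.00 ± 0.29. Of 6 xenobiotic sensor genes tested, 1 had an unadjusted p below 0.05. That gene, Nr1i3, was looked at after the values were seen. It was low, at 4.80 and 3.68 CPM in the SISC libraries and 0 and 0.309 CPM in the LISC libraries (log2 −4.46 ± 1.12; edgeR adjusted p = 0.155). Nr1i2, the pregnane X receptor gene, had a log2 difference of −0.08 ± 0.27, and Rxra, its partner, of 0.44 ± 0.45. Over all genes tested, 13.4% had an unadjusted p below 0.05.

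**Figure D5:**
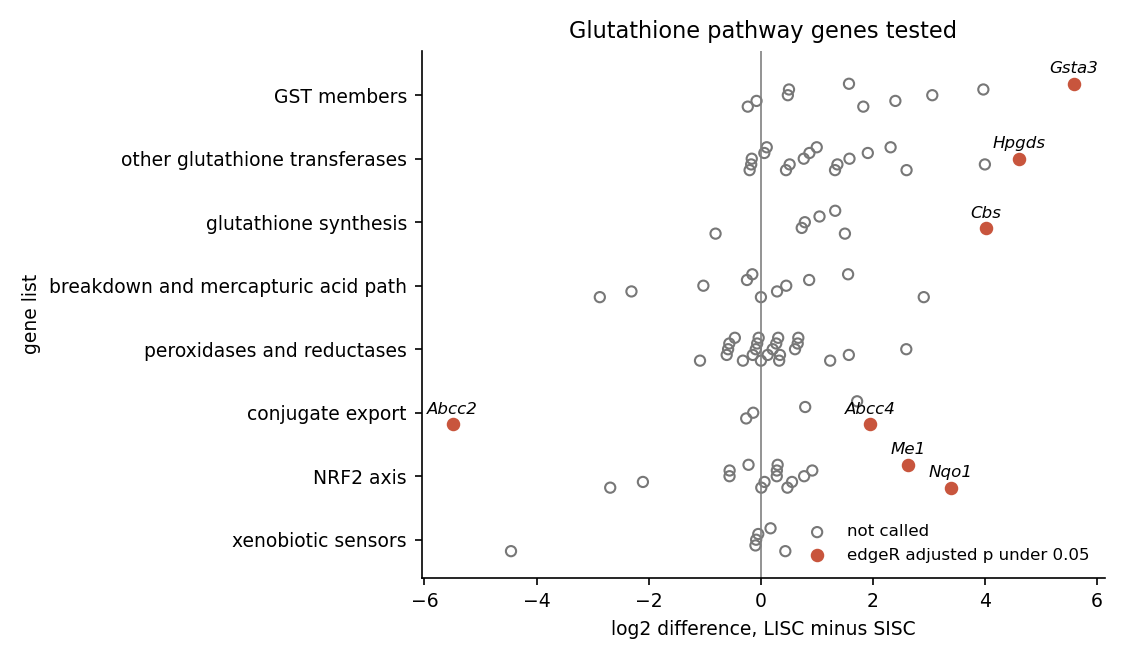
Log2 difference (LISC minus SISC) of each gene tested in 8 lists, with filled points for genes with an edgeR adjusted p below 0.05 and open points for the others. The filled points are Gsta3, Hpgds, Cbs, Abcc4, Me1 and Nqo1, to the right of 0, and Abcc2 at −5.50.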

How the data were processed

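RNA selected by its poly(A) tail was read in 4 directional libraries, 2 of SISC and 2 of LISC, grouped and numbered by their titles. The submitters' processing notes name the build GRCm38 (mm10), the aligner STAR 2.7.2b and the counter RSEM 1.2.31. Which annotation release, strand setting and trimming were used is not stated there. Expected counts per gene, as RSEM estimates them by dividing ambiguous reads among genes, were deposited by the authors. The authors also deposited TPM, scaled by effective length, and a posterior SD of each count.

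Of 55487 gene identifiers, 55227 had a symbol in GENCODE M21, from which coordinates (1-based) come. After rounding, expected counts were tested with edgeR 4.0.16 under R 4.3.3, using TMM scaling, filterByExpr (minimum count 10) and a quasi-likelihood fit with group as the only term. Benjamini-Hochberg adjustment covered all 14165 genes that passed, at a threshold of 0.05. Differences are LISC minus SISC, and the SE is the log2 difference divided by the square root of F. Differences within a replicate number are log2 CPM with a prior count of 2. A count of 0 allows up to 3 counts, or 0.110 to 0.234 unscaled CPM depending on the library. Chi-square per degree of freedom between replicates, rRNA genes included, was 892 in SISC and 833 in LISC, well above counting noise. The part of rRNA genes in it, whose share differed between replicates, was not taken out. Each library counted as 1 sample. The fits were also run on simulated counts with the same spread for every gene and no difference between replicate numbers. That run does not show how the fits behave on these data.

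Alternatives were DESeq2 1.42.0, its size factors, other filters, rRNA genes left out, a replicate block, limma-trend (limma 3.58.1) on log2(TPM + 1), summed copies and each library left out. With a library left out, its group has no measured spread, and the fit takes the spread from the other group. The members and lists were chosen with earlier results of these data known. The rule named all 10 GST genes, the called genes of the related lists (at most 4 each, except all called transferases), the 4 transferases and 2 genes per other list of highest TPM, and the 3 genes most like the GST gene of smallest p. Other genes were named after their values were seen. One gene of the export list is not reported here and was left out of that list.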

Additional observations from a re-analysis of the deposited data

How the results depend on the processing

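Gsta3 was called in each alternative that kept all libraries, and no GST gene was called higher in SISC in any of these. Fits with summed copies left the counts of Gsta3 as they were. Of 126 values of the 10 genes under these alternatives, 98 kept their direction and their side of the threshold, 25 crossed to an adjusted p below 0.05 and 3 changed sign. The number of the 10 genes called was 1 as fitted, and 2 with DESeq2's size factors in edgeR and with rRNA genes left out, 3 with a stricter filter (9 tested) and with limma-trend on TPM, 5 with DESeq2, with no filter and with the replicate block, and 2 to 3 with one library left out. The median log2 difference over them was 1.03 to 2.14 with one library left out, the lowest without LISC replicate 2. Genes called among all tested were 311 (206 higher in LISC, 105 in SISC) as fitted, 1153 (769 and 384) with DESeq2, 1407 (942 and 465) with no filter, 525 (353 and 172) with limma-trend and 245 to 487 (166 to 338 and 79 to 149) with one library left out, the highest without SISC replicate 1. With DESeq2's size factors in edgeR 273 of 14165 genes were called, with rRNA genes left out 286 of 14313 and with the stricter filter 360 of 11624. The fit with no filter covered 24003 genes. The cause of these moves was not tested.

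The titles share replicate numbers but do not say that a number pairs samples. Deviations from the group means correlated at 0.65 between same-numbered libraries over 14165 genes, which are not independent. With the replicate block edgeR called 1539 genes (1015 and 524), among them Gsta3, Gsta4, Gstk1, Gstm1 and Gstm3. Of the other named genes not called as fitted, it called Mgst1 (adjusted p = 0.0286), Mgst2 (0.0172), Mgst3 (0.00644), Gstm2 (0.00570), Gclm (0.00414), Gss (0.0302), Abcc3 (0.00260) and Anpep (0.0395), and Lap3 changed sign to −0.0016.

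Signs near 0 turned in a few genes. Gsto1 ran from −0.39 to 0.19, Gstt1 from −0.48 to 0.044, Txn1 from −0.066 to 0.79 and Nr1i2 from −0.28 to 0.12 with one library left out. Taldo1 ran from −0.20 to 0.22 and Lap3 from −0.22 to 0.21 there, and their values were −0.018 and −0.030 with DESeq2's size factors, −0.020 and −0.028 with DESeq2 and −0.016 and −0.023 with rRNA genes left out. Taldo1 was −0.062 with limma-trend. Depth limits Gsta1 and Gsta3 in SISC, at 12.1 to 42.8 expected counts.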
